A study of Mus musculus with 65 samples.

Results

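Translation initiation and elongation factor genes were followed through single haematopoietic stem cells of aged mice. The members were every autosomal protein-coding gene of the table whose symbol begins with Eif1 to Eif6 or with Eef, apart from Eif2ak2, which left 35 of 18036 genes. By the same names the annotation holds 68 such genes, and the others were not analysed here. The cells came from bone marrow of SCL-tTAxH2B-GFP double heterozygous mice aged over 20 months, in which a transactivator named for the SCL promoter drives a GFP-tagged histone. Cells were sorted singly as LSK CD34-/low Flk2- CD48- CD150+ long-term stem cells and kept overnight at 3% O2 with no growth factors, and all groups shared these steps. GFP-positive cells are called label-retaining (37 cells: 9, 9, 10 and 9 from repeats 1 to 4) and GFP-negative cells non-label-retaining (28 cells: 8, 4, 6 and 10). The labels used here give no length of the chase and no number of animals per repeat, and whether a GFP-negative cell once carried the label cannot be told from them.

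Initiation factors place the small ribosomal subunit and the initiator tRNA on the start codon of an mRNA, and elongation factors bring each aminoacyl-tRNA and move the ribosome along. eIF4 proteins bind and unwind the capped end of the mRNA, eIF3 is the large scaffold on the small subunit, eIF2 carries the initiator tRNA, and eEF1 and eEF2 run elongation. Haematopoietic stem cells are known for a low rate of protein synthesis compared with their progeny. Many mRNAs of the translation machinery begin with a run of pyrimidines (C or T), through which mTOR signalling acts on their own translation.

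The starts of 7 member genes are shown because their counts carry the results below, and to show which of them has a run of pyrimidines at or near its annotated start. Each line gives 5 bases before and 25 from an annotated start in GRCm38.p6 (RefSeq), read 5′ to 3′ on the gene's strand, and capitals mark a run of at least 8 C or T bases on that strand.
Eif3f, chr7:108934410-108934439, plus strand: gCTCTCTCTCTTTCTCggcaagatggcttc
Eif3k, chr7:28981864-28981893, minus strand: gcgctggtgctgaaagcgCCTTTCCCTTTg
Eef2, chr10:81176626-81176655, plus strand: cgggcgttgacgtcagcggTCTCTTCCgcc
Eif1, chr11:100319944-100319973, plus strand: cacaggggcggctatataagtgaatacagg
Eif5, chr12:111538096-111538125, plus strand: tgcatgcgagccaatgacaagagaagttgg
Eif4a1, chr11:69672399-69672428, minus strand: gtcacgtcgagttgcagagcgccggcaggc
Eif3c, chr7:126566342-126566371, minus strand: cagagggactcggcagcttagctggttcgt
A run of at least 8 C or T bases anywhere in the 30 bases was present at 6 of 40 annotated starts of the 28 members with a start in the table (15.0%). It was present at 10.33% of all 32851 starts. The 5 genes with a run were Eif3f, Eif3k, Eef2, Eif2b2 and Eif4enif1. Their detection ranged from Eef2 with a count in 56 of 65 cells to Eif4enif1 in 5. The longest run, of 15 bases, was in Eif3f, the only 1 of the 5 genes whose run covered the annotated start. In the others it began downstream of that start, at base 14 in Eif3k, 15 in Eef2, 6 in Eif2b2 and 7 or 15 in Eif4enif1. These are letters at annotated starts, and where transcription began in these cells was not measured.

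The submitters call the deposited values normalized, but totals per cell were not brought to a like scale, and the values were read here as unscaled estimated counts, without molecular identifiers. Thinning, CPM and the detection threshold rest on that reading. Totals per cell ran from 27954 to 20516069 (median 264894) in label-retaining and from 86 to 661078 (median 118056) in non-label-retaining cells, and 4 cells, all non-label-retaining, were under 10000. The deepest cell held 60.77% of the counts of label-retaining repeat 1. Totals are over the genes of this table and are not full library depth. Of 18 haematopoietic stem cell markers, 8 were in the table and 7 had a count, with Slamf1, which encodes CD150, at 0 in every cell. Erythroid markers (4 in the table) held 0.143 to 9.35% of counts in label-retaining and 0.386 to 3.18% in non-label-retaining repeats. All 65 libraries carried a single run label.

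A gene counts as detected in a cell at a value of at least 1, and the share of cells is given per repeat, since cells of 1 repeat are not replicates of a condition. Of the 35 members, 33 were detected in at least 1 cell and 25 in at least 10. All 25 had a higher mean share in label-retaining cells, beside 3151 of all 3379 genes detected in at least 10 cells. The median difference was 24.0 percentage points over the 25 members and 19.7 over all 3379 genes. In 13 of 25 members (52.0%) every repeat had the higher share in its label-retaining cells, against 29.5% of all genes. Only Eif3f, among the 25 (4.0%), had shares that did not overlap between the groups, against a background of 7.84% of all genes. The 1 member without overlap is near the background share. By the exact two-sided permutation test of 4 against 4 repeats, in which the smallest possible p is 0.0286, the smallest adjusted p was 0.3643 over members and over all genes, and 0 of 3379 genes were called (0%), with 265 at an unadjusted p under 0.05. The heat map of detection shares lays out the 25 members by role.

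**Figure D1:**
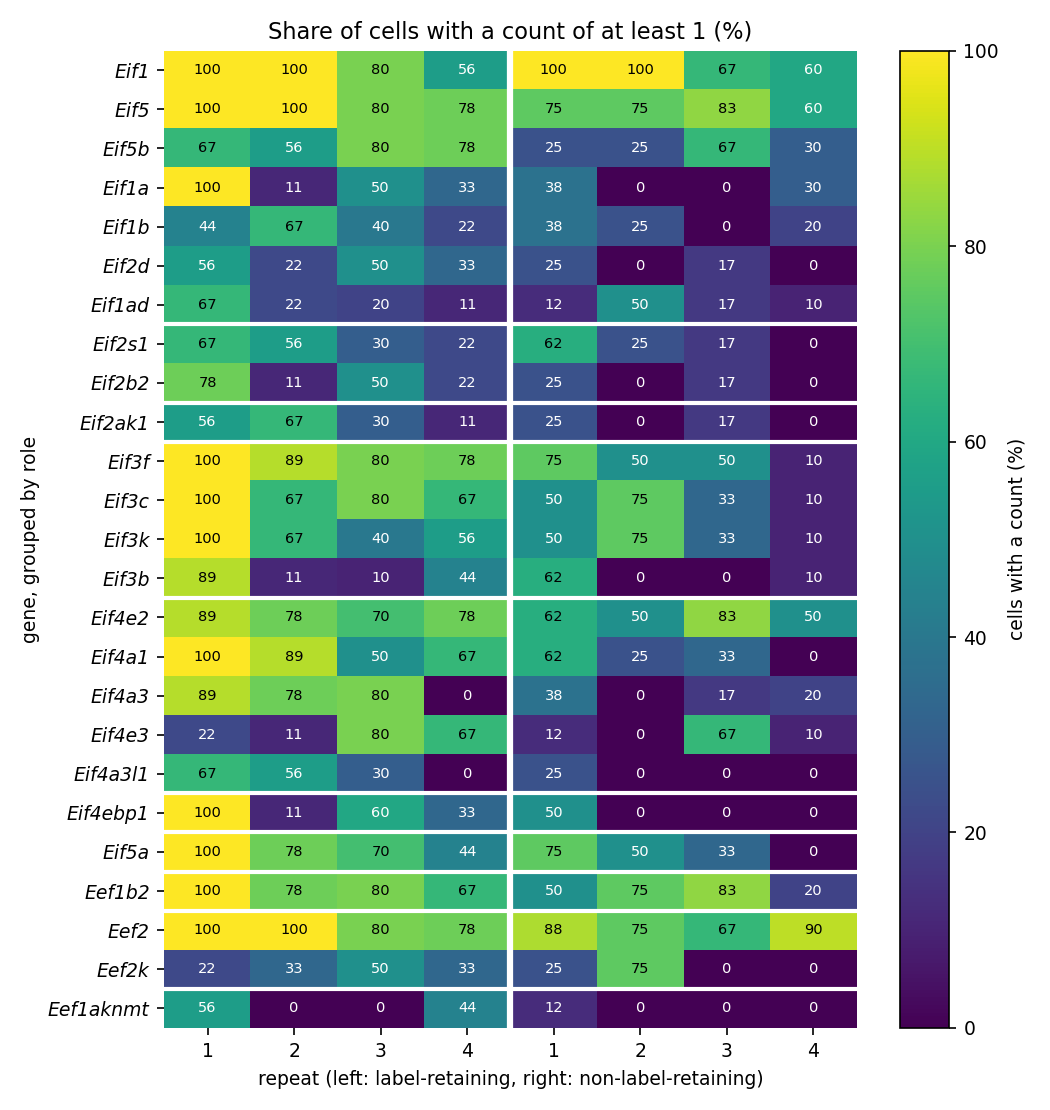
Heat map of the share of cells with a count of at least 1 (percent, colour and printed value), with the 25 members detected in at least 10 cells in rows by role and the 4 repeats of each group in columns. Label-retaining repeat 1 has the most genes at 100%, and non-label-retaining repeat 4 has 0% for 10 of the 25 genes while Eef2 stands at 90.0% there.

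The scanning ribosome is held open by eIF1 and eIF1A, the start is fixed when eIF5 triggers GTP hydrolysis on eIF2, and eIF5B joins the large subunit. All 7 members with these roles were detected in at least 10 cells, and 4 of them more often in label-retaining cells of all 4 repeats. Eif1 was detected in 9 of 9, 9 of 9, 8 of 10 and 5 of 9 label-retaining cells of repeats 1 to 4, and in 8 of 8, 4 of 4, 4 of 6 and 6 of 10 non-label-retaining cells. The groups overlapped throughout for Eif1, and the mean shares, 83.9% ± 21.1 (SD, n = 4) and 81.7% ± 21.3, differed by 2.22 points (exact permutation p = 1.0). Eif5 was found in 9 of 9, 9 of 9, 8 of 10 and 7 of 9 label-retaining against 6 of 8, 3 of 4, 5 of 6 and 6 of 10 non-label-retaining cells, and non-label-retaining repeat 3 lay above 2 label-retaining repeats. Counts within cells spanned a wider range than detection: the median Eif1 count per cell was 5272.2, 5998.5, 588 and 37 in label-retaining repeats 1 to 4 and 317.5, 16.2, 2.5 and 2.2 in non-label-retaining repeats. These medians are raw counts, not scaled to the total of each cell.

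Eif5b, the subunit-joining GTPase, was detected in 6 of 9, 5 of 9, 8 of 10 and 7 of 9 label-retaining cells and in 2 of 8, 1 of 4, 4 of 6 and 3 of 10 non-label-retaining cells. The share was higher in label-retaining cells in each repeat (70.0% ± 11.3 against 36.7% ± 20.1; exact permutation p = 0.0857, adjusted 0.3888), and non-label-retaining repeat 3 overlapped the lower label-retaining repeats. Eif1a was uneven between repeats, with 9 of 9, 1 of 9, 5 of 10 and 3 of 9 label-retaining and 3 of 8, 0 of 4, 0 of 6 and 3 of 10 non-label-retaining cells. Eif1b, a close relative of Eif1, is given because its levels did not overlap (below), and was detected in 4 of 9, 6 of 9, 4 of 10 and 2 of 9 label-retaining against 3 of 8, 1 of 4, 0 of 6 and 2 of 10 non-label-retaining cells. In the 6 non-label-retaining cells with Eif1b its count never exceeded 4, and in label-retaining cells it reached 2047. Eif2d, which can deliver initiator tRNA outside the usual route, was found in 15 label-retaining and 3 non-label-retaining cells, and Eif1ad, a protein with an eIF1A domain, in 11 and 5.

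eIF2 is recharged by the exchange factor eIF2B, and stress kinases that phosphorylate the alpha subunit of eIF2 block that step. The alpha subunit gene Eif2s1 was detected in 6 of 9, 5 of 9, 3 of 10 and 2 of 9 label-retaining cells and in 5 of 8, 1 of 4, 1 of 6 and 0 of 10 non-label-retaining cells. Each repeat had the higher share in label-retaining cells, with a mean difference of 17.6 points. The SD between repeats was 21.0 and 26.4 points, a spread that takes no account of the pairing of repeats. With the same-numbered repeats paired, the exact sign-flip p was 0.125, the smallest possible, as for every gene higher in all 4 repeats. Eif2b2, the beta subunit of eIF2B, was detected in 15 label-retaining and 3 non-label-retaining cells. Eif2ak1, which encodes the haem-regulated eIF2 kinase, is given for its unadjusted level p and was found in 5 of 9, 6 of 9, 3 of 10 and 1 of 9 label-retaining against 2 of 8, 0 of 4, 1 of 6 and 0 of 10 non-label-retaining cells. Eif2ak3, the kinase of the endoplasmic reticulum stress response, was detected in 2 cells, both in label-retaining repeat 2.

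eIF3 is built from many subunits, among them those encoded by Eif3b, Eif3c, Eif3f and Eif3k. Eif3f was detected in 9 of 9, 8 of 9, 8 of 10 and 7 of 9 label-retaining cells of repeats 1 to 4, which is 100, 88.9, 80.0 and 77.8%. In non-label-retaining cells it was detected in 6 of 8, 2 of 4, 3 of 6 and 1 of 10, which is 75.0, 50, 50 and 10%. Every label-retaining repeat was above every non-label-retaining one, although the gap between the nearest repeats, 77.8 and 75.0%, is less than 1 cell. The exact 95% interval (Clopper-Pearson, counting error only) of the 2 of 4 cells of non-label-retaining repeat 2 runs from 6.76 to 93.2%. The means were 86.7% ± 10.1 and 46.3% ± 26.9 (SD, n = 4 repeats), a difference of 40.4 points with an exact permutation p of 0.0286, the smallest this design allows, and an adjusted p of 0.3643. With the same-numbered repeats paired, the exact sign-flip p was 0.125, also the smallest possible. The median Eif3f count per cell was 293, 269, 12.5 and 132 in label-retaining repeats and 7, 0.5, 1 and 0 in non-label-retaining repeats. These medians are raw counts behind the same shares, not scaled to the total of each cell. The share of all genes with medians apart in this way was not computed. The separation of the detection shares held when 61 cells were thinned to 10000 counts (69.9% ± 8.2 against 25.2% ± 24.1). There, 4.68% of all genes were higher without overlap. The other 4 cells, all non-label-retaining, were too shallow and were left out.

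Eif3c was detected in 9 of 9, 6 of 9, 8 of 10 and 6 of 9 label-retaining cells and in 4 of 8, 3 of 4, 2 of 6 and 1 of 10 non-label-retaining cells. Eif3k was detected in 9 of 9, 6 of 9, 4 of 10 and 5 of 9 against 4 of 8, 3 of 4, 2 of 6 and 1 of 10. The Eif3c overlap came from non-label-retaining repeat 2 alone, at 75.0%, a share that rests on 4 cells, and the Eif3k overlap from non-label-retaining repeats 1 and 2. Eif3b was detected in 14 label-retaining and 6 non-label-retaining cells, with 8 of the 14 and 5 of the 6 in repeat 1. Counting the 4 subunits together per cell, 12 of 37 label-retaining cells had all 4 and 1 had none, whereas 2 of 28 non-label-retaining cells had all 4 and 9 had none. Of the 9 cells with none, 6 were among the 10 of non-label-retaining repeat 4, and 8 of the 12 with all 4 were among the 9 of label-retaining repeat 1. Not all subunits were detected in the same cells: of 32 label-retaining cells with Eif3f, 25 also had Eif3c, 22 Eif3k and 13 Eif3b. In non-label-retaining cells, 8, 6 and 3 of the 12 cells with Eif3f had them. A cell without a count may still hold the transcript. Joint detection was not compared with that expected from the number of genes detected per cell.

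**Figure D2:**
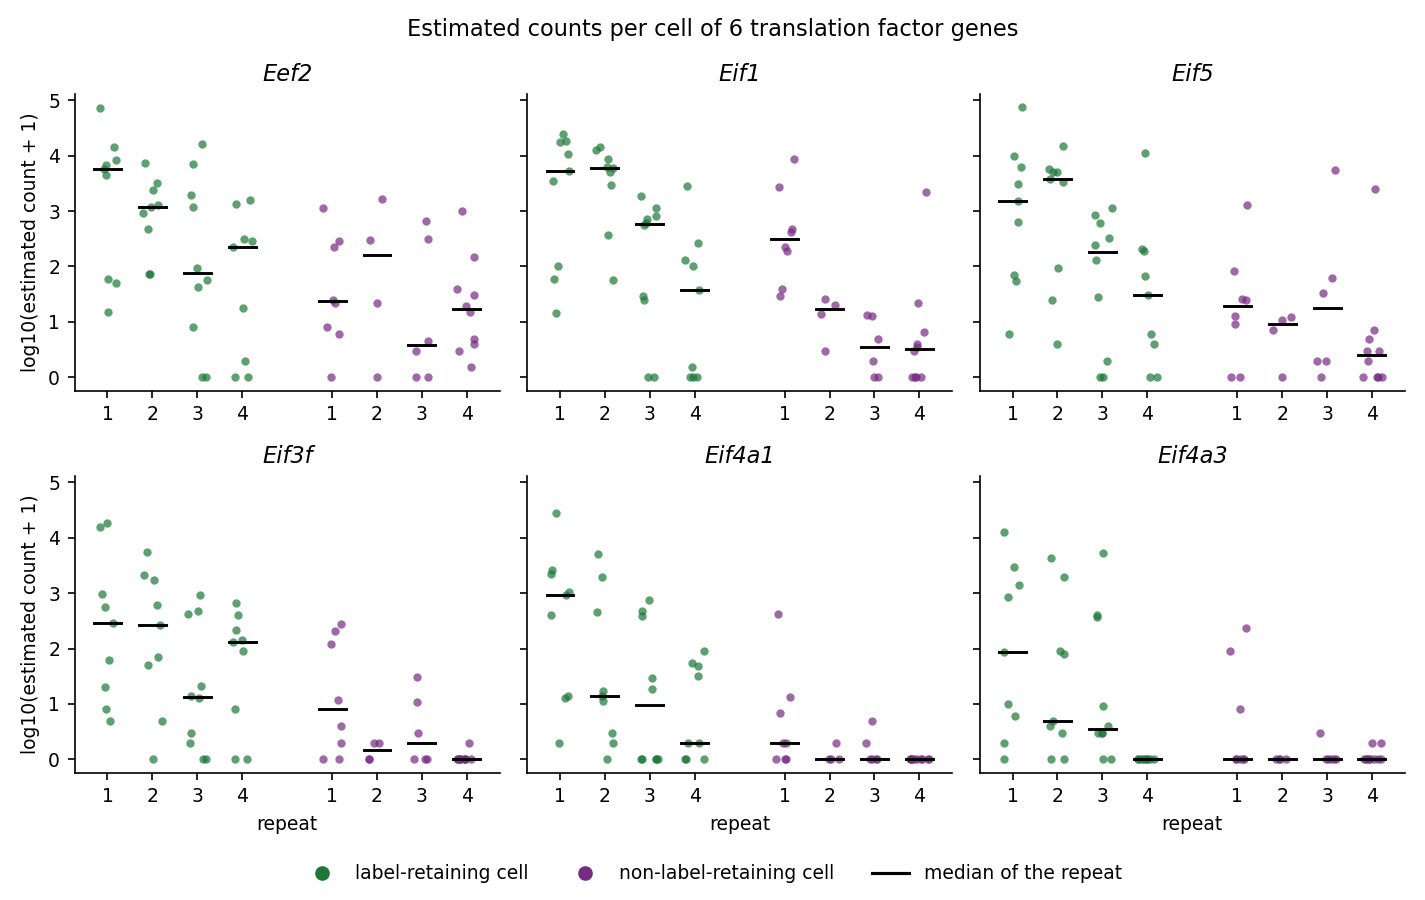
Estimated count per cell, as log10(count + 1), of Eef2, Eif1, Eif5, Eif3f, Eif4a1 and Eif4a3 in each cell (points) by repeat, with the median of each repeat as a bar and the groups in 2 colours. Cells of 1 repeat span several orders of magnitude, Eif4a3 lies at 0 in all 9 cells of label-retaining repeat 4, and the medians of Eif3f and Eif4a1 are at most 1 in non-label-retaining repeats 2 to 4.

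The eIF4 group covers the cap and the unwinding of the mRNA. Eif4a1, the RNA helicase of cap-dependent initiation, was detected in 9 of 9, 8 of 9, 5 of 10 and 6 of 9 label-retaining cells and in 5 of 8, 1 of 4, 2 of 6 and 0 of 10 non-label-retaining cells. The mean shares were 76.4% ± 22.4 and 30.2% ± 25.8, the largest difference (46.2 points) of the 25 members, and label-retaining repeat 3 at 50% lay under non-label-retaining repeat 1 at 62.5% (exact permutation p = 0.0571, adjusted 0.3779). The 0 of 10 cells of non-label-retaining repeat 4 allow a share of up to 30.0%. Eif4a3, a helicase of the exon junction complex on spliced mRNA, was detected in 8 of 9, 7 of 9 and 8 of 10 cells of label-retaining repeats 1 to 3 but in 0 of 9 of repeat 4, which allows up to 33.3%. In non-label-retaining cells it was found in 3 of 8, 0 of 4, 1 of 6 and 2 of 10. The absence of Eif4a3 in label-retaining repeat 4 ran against its relative Eif4a1, found in 6 of the same 9 cells. Eif4a3l1 was detected in 16 cells, all of which also had Eif4a3. Over the 10 cells with high Eif4a3 counts, and not over all 16, its median was 0.074 of the Eif4a3 count. Reads of 2 such similar genes may have been split between them by the authors' counting.

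Eif4e2 encodes a cap-binding protein that represses rather than recruits, and was detected in 8 of 9, 7 of 9, 7 of 10 and 7 of 9 label-retaining against 5 of 8, 2 of 4, 5 of 6 and 5 of 10 non-label-retaining cells. Eif4e3, a further cap-binding relative, was detected in 2 of 9, 1 of 9, 8 of 10 and 6 of 9 label-retaining and in 1 of 8, 0 of 4, 4 of 6 and 1 of 10 non-label-retaining cells. The Eif4e3 share was highest in repeat 3 of both groups, at 80.0 and 66.7%. It was higher in label-retaining cells of all 4 repeats (exact sign-flip p = 0.125). The range between label-retaining repeats (11.1 to 80.0%) was wider than the difference between the groups (22.7 points). Eif4ebp1, the inhibitor that sequesters the cap-binding factor until mTOR phosphorylates it, was detected in 9 of 9, 1 of 9, 6 of 10 and 3 of 9 label-retaining cells. In non-label-retaining cells Eif4ebp1 was found in 4 of 8 cells of repeat 1 and in 0 of 4, 0 of 6 and 0 of 10 of the others. All 4 repeats had the higher Eif4ebp1 share among label-retaining cells (exact sign-flip p = 0.125). The mean difference was 38.6 points, with an SD of 38.2 points among label-retaining repeats (exact permutation p = 0.1714, adjusted 0.4783).

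Eif5a encodes the hypusine-bearing factor that helps the ribosome through difficult peptide bonds. It was detected in 9 of 9, 7 of 9, 7 of 10 and 4 of 9 label-retaining cells and in 6 of 8, 2 of 4, 2 of 6 and 0 of 10 non-label-retaining cells. Both groups fell in the same order of repeats, and the share was higher in label-retaining cells within each (exact sign-flip p = 0.125). The means were 73.1% ± 22.9 and 39.6% ± 31.5 (exact permutation p = 0.1714, adjusted 0.4783). Eif5a overlaps Gps2 in the annotation, which had counts in 29 cells, and the kit does not mark the strand, so reads in the shared stretch cannot be told apart. The same limit holds for Eif5b with Rev1, Eif1ad with Banf1, Eif2ak1 with Aimp2 and Eif2d with Rassf5.

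Among elongation factors, Eef2, the GTPase that moves the ribosome by 1 codon, was the member detected in the most cells. It was present in 9 of 9, 9 of 9, 8 of 10 and 7 of 9 label-retaining cells and in 7 of 8, 3 of 4, 4 of 6 and 9 of 10 non-label-retaining cells. The 9 of 10 cells of non-label-retaining repeat 4 are the same set in which Eif5a, Eif4a1, Eif4ebp1, Eif2s1, Eif2ak1, Eif2b2 and Eif2d were all at 0 cells. Its mean share was 89.4% ± 12.2 against 79.8% ± 10.9 (exact permutation p = 0.2286, adjusted 0.5297). Eef1b2, the exchange factor that recharges eEF1A, was detected in 9 of 9, 7 of 9, 8 of 10 and 6 of 9 label-retaining against 4 of 8, 3 of 4, 5 of 6 and 2 of 10 non-label-retaining cells, with overlapping shares. Eef2k, the kinase that inhibits Eef2, was found in 13 label-retaining and 5 non-label-retaining cells.

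The rarely detected members complete the list. Eef1aknmt, a methyltransferase of eEF1A, was found in 10 cells, 9 of them label-retaining. Under 10 cells each had Eif4ebp2 (6), Eif4ebp3 (5), Eif4enif1 (5), Eef1akmt2 (4), Eefsec (3), Eef1e1 (2), Eif2ak3 (2) and Eef1akmt3 (1). No cell had Eif4e1b or Eif3j2, and 0 of 65 cells allows a share of up to 4.62%. In label-retaining repeat 1, 5 of 9 cells had Eif4ebp2, which was in 0 cells of the other label-retaining repeats and 1 non-label-retaining cell. Eefsec encodes the elongation factor for selenocysteine.

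With detection set at 10 counts rather than 1, the shares of 5 of 25 members (Eif3f, Eif3c, Eif4a1, Eif3k and Eif1b) did not overlap, all higher in label-retaining cells, beside 12.6% of all genes. That is 20.0% of the members. For Eif4a1, 23 label-retaining and 2 non-label-retaining cells had at least 10 counts, and for Eif3c 24 and 4 cells. Eif1b reached 10 counts in 11 label-retaining cells and in 0 non-label-retaining cells. Median totals per cell were 1654517, 697583, 201268 and 164961 in label-retaining and 65358, 41004, 271753 and 201757 in non-label-retaining repeats, so label-retaining cells were the deeper in repeats 1 and 2 and the shallower in repeats 3 and 4. The part of depth in these counts was not tested beyond the thinning. After thinning to 10000 counts, for which 4 non-label-retaining cells were too shallow and were left out, 24 of 25 members had a higher share in label-retaining cells and Eif1ad did not. The median difference of the 25 was then 14.9 points, beside 6.67 points over all genes, and 2558 of 3379 genes had the higher thinned share in label-retaining cells. Thinned shares of Eif4a1 were 57.2% ± 19.6 against 16.0% ± 21.8 and those of Eef2 83.7% ± 17.4 against 72.9% ± 26.9. The dot plot of thinned shares shows the 25 members side by side.

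**Figure D3:**
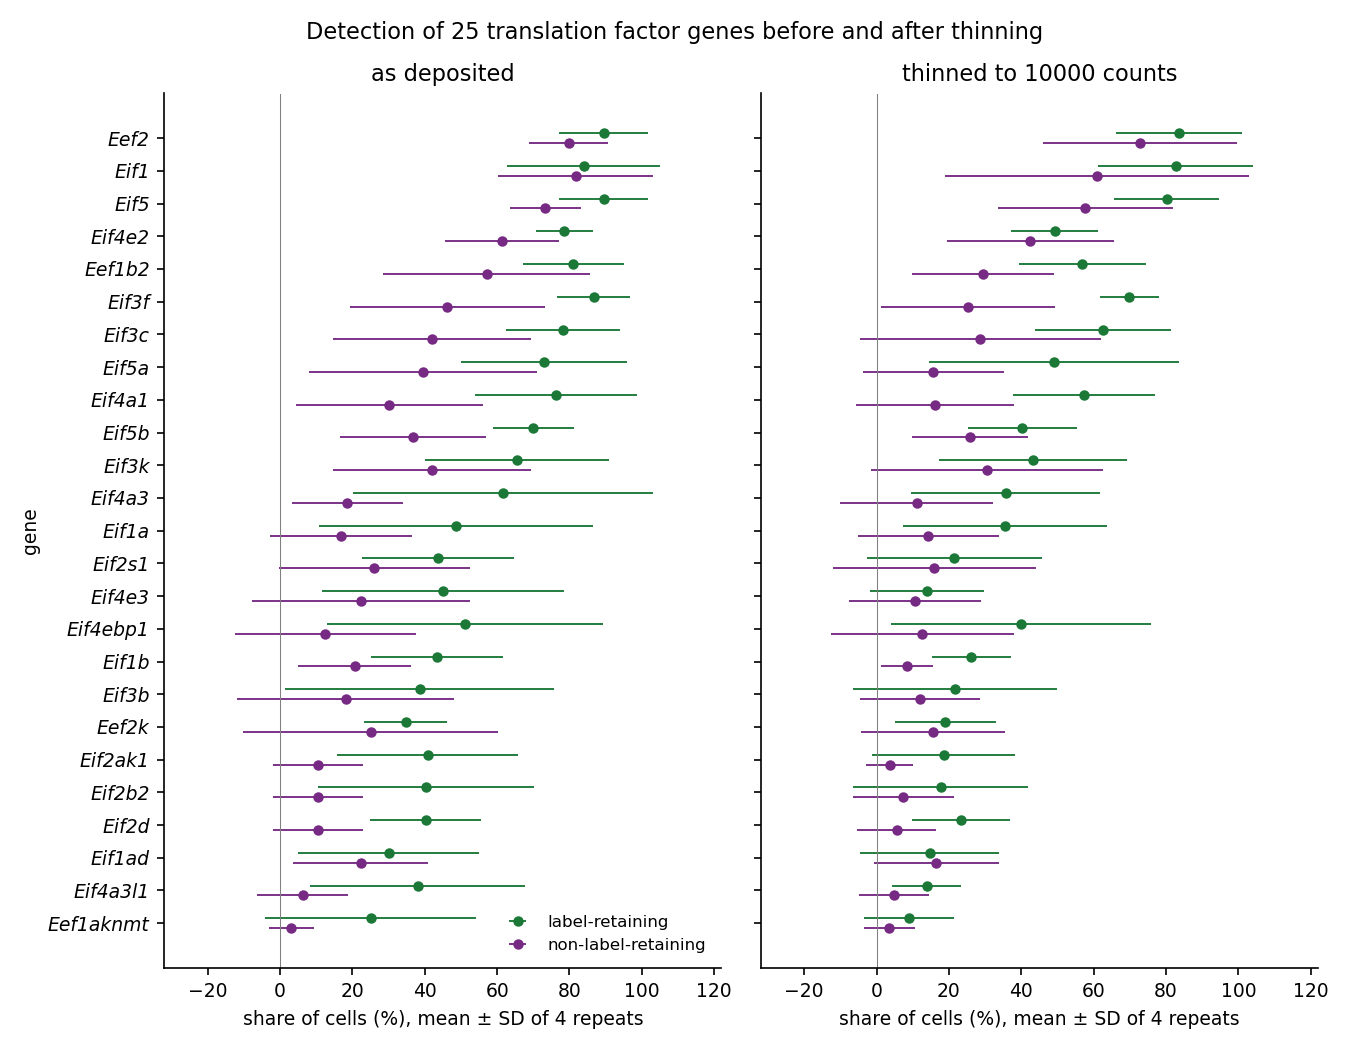
Mean share of cells with a count (percent, points) ± SD over 4 repeats (lines) for 25 members in label-retaining and non-label-retaining cells, as deposited (left) and thinned to 10000 counts (right). Before thinning all 25 label-retaining means lie to the right, and after thinning Eif1ad is the exception, while Eif3f keeps the clearest gap at 69.9 against 25.2%.

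Levels were compared on 8 sums of counts, 1 for each group of each repeat, with edgeR's quasi-likelihood test and Benjamini-Hochberg adjustment, for 24 members with enough counts among 2767 genes. CPM below is the summed count scaled to the TMM-adjusted total of its repeat. No gene was called at an adjusted p under 0.05 (0%; smallest adjusted p 0.3254), and at an unadjusted p under 0.05 edgeR gave 179 genes higher (6.47%) and 123 lower (4.45%) in label-retaining cells. DESeq2 called 14 genes (0.506%), none (0) of them a member. It gave no adjusted p for Eif4e2, Eef1aknmt, Eif3b, Eif2b2 and Eif4a3l1, so these members could not be called by it. By edgeR 1 of the 24 members had an unadjusted p under 0.05, 17 had a positive and 7 a negative log2 fold change, and the median was 1.31 beside 1.14 over all genes. Another scaling moves these signs: with plain totals 21 members were positive and 3 negative, with a median over all genes of 1.77, and with RLE size factors the median over all genes was 0.63. The spread between repeats was wide, with a common dispersion of 3.394. The standard errors (SE) of the members' log2 fold changes ran from 2.01 to 2.71. The edgeR test gives no SE, so each was worked back from the log2 fold change and its p through the normal distribution.

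Eif3f stood at 542.8, 567.6, 442.8 and 733.5 CPM in label-retaining repeats 1 to 4 and at 415, 7.94, 80.7 and 2.65 CPM in non-label-retaining repeats. On these sums the 2 sets did not overlap, and the 4 label-retaining levels lay close together. With CPM taken within each cell and averaged over cells, the Eif3f sets did overlap. Label-retaining repeats then stood at 316.4, 1421, 130.5 and 668.7 CPM per kilobase of exon. Non-label-retaining repeats stood at 554.4, 5.46, 14.6 and 0.236. The log2 fold change of Eif3f on the sums was 2.17 ± 2.20 (SE, edgeR adjusted p = 0.638). Eif1b was the other of 24 members whose levels did not overlap on the sums, beside 5.28% of all genes higher and 0.181% lower. It stood at 30.4, 225.5, 24.0 and 133.5 CPM against 4.70, 3.97, 0 and 7.95 CPM (log2 fold change 4.64 ± 2.55, edgeR adjusted p = 0.472). Eif2ak1, at 83.1, 336.4, 2.62 and 3.55 against 2.69, 0, 3.84 and 0 CPM, had the smallest unadjusted p (0.0302; log2 fold change 5.88 ± 2.71, edgeR adjusted p = 0.426). The label-retaining values of Eif2ak1 rest on repeats 1 and 2, and repeats 3 and 4 lay within the range of the other group.

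The 7 members with a negative log2 fold change were Eef2 (-0.43), Eif1 (-1.06), Eif5 (-0.97), Eif4e2 (-2.12), Eef1b2 (-0.92), Eif5b (-3.68) and Eif3b (-3.11), none with an unadjusted p under 0.05. These include 5 of the 6 members found in the most cells (Eif3f is the other), all detected more often in label-retaining cells, so in this unpaired TMM fit detection and level had opposite signs. The TMM factors, which multiply the totals, were 0.289 and 0.222 in non-label-retaining repeats 3 and 4 and 1.441 to 2.063 in the other sums. With plain totals Eef2 (0.19), Eif5 (1.28), Eif4e2 (0.09) and Eef1b2 (1.14) were positive. Eif1 (-0.32), Eif5b (-3.33) and Eif3b (-0.32) stayed negative there. Single cells held much of these sums. The Eif5b level of non-label-retaining repeat 2, 5779 CPM, came from 1 of 4 cells with 1455 counts, and the Eif3b level of repeat 4, 1397 CPM, from 1 of 10 cells with 527 counts. For Eif5, 1 cell of non-label-retaining repeat 3 held 5570 of 5664 counts (98.3%) and 1 cell of repeat 4 held 2545 of 2560 (99.4%). Over the 16 members found in the most cells, 1 cell held over 50% of the sum in 45 of 54 non-label-retaining sums with any count (median 86.6%) and in 39 of 63 label-retaining sums (median 54.0%). When cells were given equal totals before averaging, the signs of Eef2, Eif1 and Eif5 turned positive, at 0.77, 1.45 and 2.04 on the log2(mean CPM + 1) scale by limma, and 22 of 24 members were positive. This rescaling also moved the median over all genes to 1.89, and Eef2 and Eif1 lay below it. With the same-numbered repeats paired as a block, Eif1 (0.84), Eif5 (0.14), Eif4e2 (0.04) and Eef1b2 (1.72) were positive, Eef2 stayed at -0.39, and 4 of 24 members were negative, beside a median over all genes of 1.90.

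Leaving out non-label-retaining repeat 1 moved the level comparison the most. Without it 8 of 24 members had an unadjusted p under 0.05, all higher in label-retaining cells, beside 16.7% of all genes, with a median member log2 fold change of 4.02 and a smallest adjusted p of 0.2105 by edgeR. That repeat had the highest non-label-retaining CPM of Eif3f (415), Eif4a1 (292.1), Eif5a (317.0), Eif4a3 (221.6), Eif2s1 (202.1) and Eif4ebp1 (75.2), and for all of these but Eif3f the other 3 repeats lay at or under 11.9 CPM. For Eif4a1 those 3 stood at 3.97, 9.61 and 0 CPM, against 534.8, 415.5, 402.3 and 99.3 CPM in label-retaining cells. For Eif5a they stood at 11.9, 9.61 and 0 CPM, and label-retaining repeats at 815.1, 666.9, 32.4 and 11.1 CPM, so the last of these overlapped them. In detection, leaving out the same repeat raised the count of non-overlapping members from 1 to 4 (Eif2d, Eif3f, Eif4ebp1 and Eif4a1; 16.0%), beside 16.8% of all genes, and leaving out label-retaining repeat 4 raised it to 5 (20.0%), beside 12.9%.

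Per kilobase of exon, CPM taken within each cell (on its own total) and averaged over cells gave an order of levels between genes. Eif1 led with 2424 ± 1141 CPM per kb (SD, n = 4) in label-retaining cells, beside 4718 ± 7746 in the other group, followed by Eef2 with 1007 ± 339 and 804 ± 877. The next levels, averaged over the 8 sets, were Eif4a3 (569.2), Eif5 (463.1), Eif3f (388.9) and Eef1b2 (229.5) CPM per kb. Neighbours in this order did not differ beyond the spread of their repeats: the Eif4a3 level comes from 3905 CPM per kb in label-retaining repeat 3 beside 0 to 257.4 in the other 7 sets. The lowest level above 0 was that of Eif2ak3.

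Per cell, a median of 17 of the 35 members was detected in label-retaining (range 2 to 24) and 7.5 in non-label-retaining cells (0 to 24). Averaged per repeat the share was 59.7, 40.3, 39.1 and 34.0% in label-retaining and 33.6, 25.0, 24.3 and 12.9% in non-label-retaining cells. Label-retaining cells were higher in each repeat and every label-retaining repeat was above every non-label-retaining one, the nearest pair being 34.0 and 33.6%. The share of all genes with any value also separated, at 22.4% or more against 17.7% or less. The means were 43.3% ± 11.3 and 23.9% ± 8.50, a ratio of 1.81, and the ratio over all genes with any value was also 1.81. After thinning to 10000 counts the means were 28.8% ± 10.1 and 15.9% ± 10.1, again a ratio of 1.81, and the ratio over all genes was 1.51. The thinned repeats overlapped, at 43.5, 24.9, 26.0 and 20.7% against 27.9, 20.4, 9.57 and 5.92%. This difference between the 2 ratios is a description of lists and was not tested. Over the 65 cells, the number of members detected followed the number of genes detected (Spearman's rho 0.936) more than total counts (0.364), and both counts come from the same library. In non-label-retaining cells rho with total counts was 0.019, and 2 cells with over 100000 counts had 3 or fewer members.

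**Figure D4:**
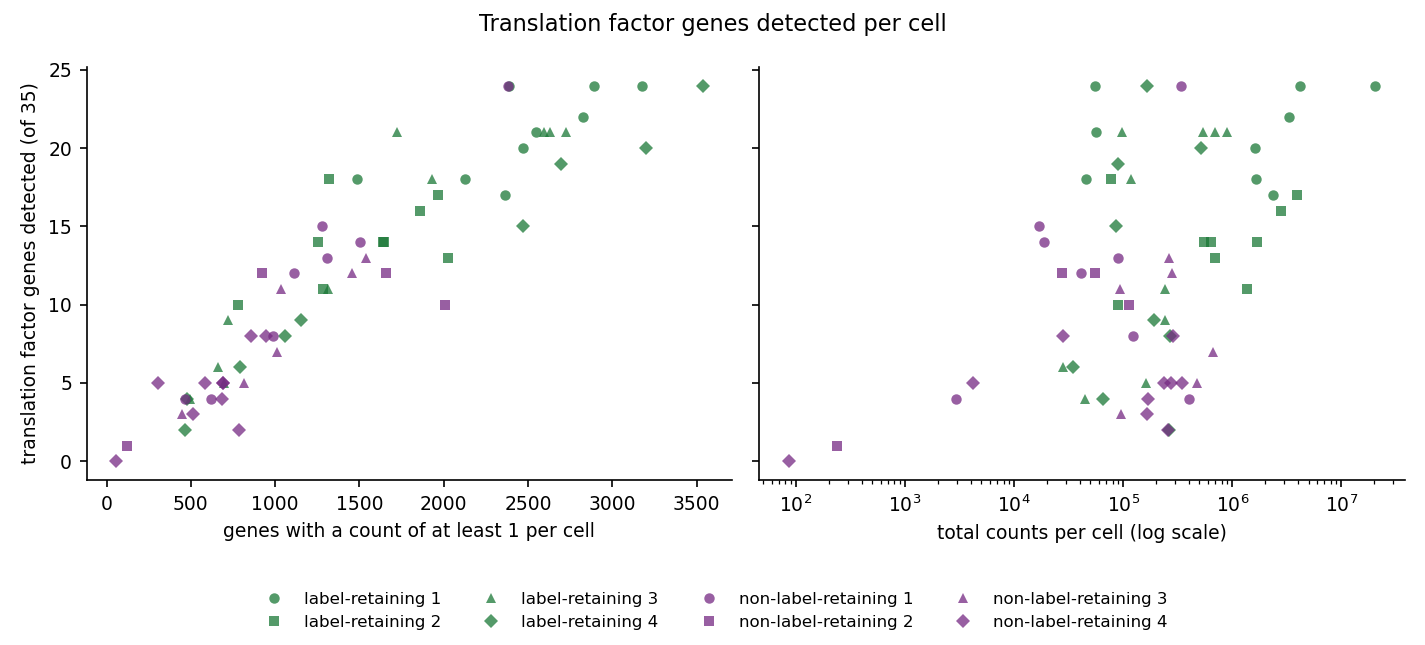
Number of the 35 members detected per cell against the number of genes detected (left) and total counts on a log scale (right), with colours for the groups and symbols for the repeats. Members rise with genes detected along 1 band for both groups (rho 0.936), and against total counts the cells of both groups scatter, with non-label-retaining repeat 4 low at 0 to 8 members.

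Members took 1.52, 2.15, 2.02 and 1.26% of the counts per cell in label-retaining repeats and 2.87, 1.63, 0.537 and 0.349% in non-label-retaining repeats. The means, 1.74% ± 0.42 and 1.35% ± 1.16, overlapped, with label-retaining cells higher in 3 of 4 repeats. Most of the high share of non-label-retaining repeat 1 was Eif1, at 2.15% of counts, against 0.239, 0.00239 and 0.1003% in the other non-label-retaining repeats and 0.268, 0.507, 0.358 and 0.149% in label-retaining ones. Eif1 values were not whole numbers in 63.0% of cells with a value, as when reads are shared out between similar genes, so its level is uncertain. Eif5 took 0.156, 0.411, 0.158 and 0.495% of counts in label-retaining and 0.097, 0.015, 0.150 and 0.080% in non-label-retaining repeats, higher in all 4 repeats on this scale, on which each cell has the same weight. The 5 eIF3 genes together took 0.298, 0.440, 0.102 and 0.211% against 0.243, 0.025, 0.004 and 0.033%.

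**Figure D5:**
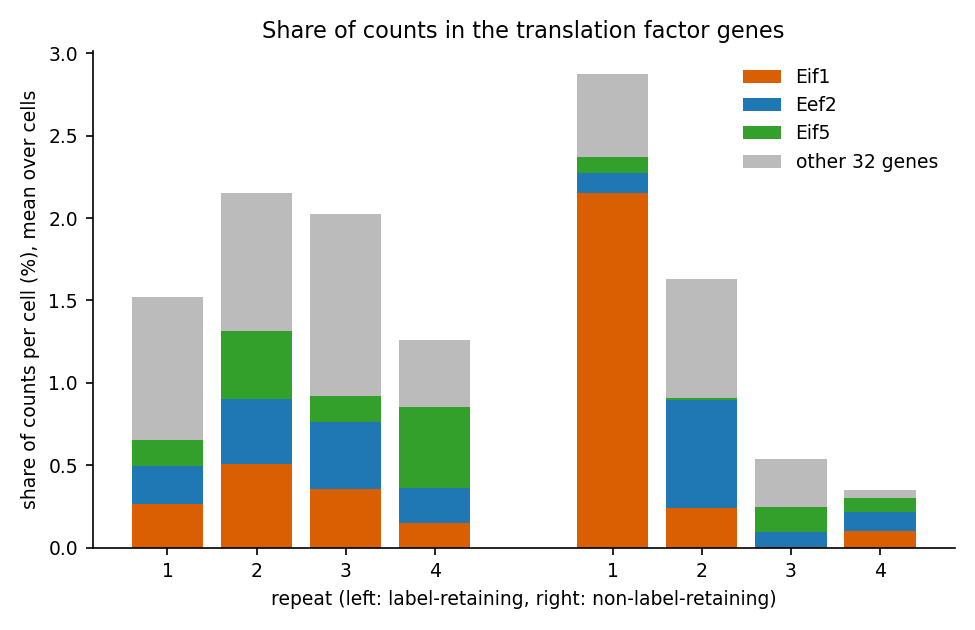
Stacked bars of the mean share of counts per cell (percent, axis from 0) held by Eif1, Eef2, Eif5 and the other 32 members in each repeat of both groups. Non-label-retaining repeat 1 reaches 2.87% through Eif1, and non-label-retaining repeats 3 and 4 lie under the 4 label-retaining repeats.

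Other genes of the pathway were described from lists of mTOR signalling, termination and poly(A)-binding, tRNA synthetases, mitochondrial translation factors and ribosomal proteins, and none of their genes was called for level or detection. Of 11 mTOR genes present, 9 were detected in at least 10 cells, 8 of them more often in label-retaining cells and 3 without overlap, beside the 7.84% of all genes. One of these was Rps6kb1, the kinase of ribosomal protein S6, found in 23 label-retaining and 11 non-label-retaining cells. Larp1, which binds pyrimidine runs at mRNA starts, was found in 25 and 10 cells with overlapping shares. Of 6 termination and poly(A)-binding genes in at least 10 cells all 6 were detected more often in label-retaining cells, 1 without overlap, and Ppp1r15a, which directs a phosphatase to eIF2, was found in 25 and 7 cells. Of 10 tRNA synthetase genes 9 had the higher share and 0 had no overlap. All 6 mitochondrial factors were higher and 0 had no overlap. Of the ribosomal protein genes 47 of 47 were detected more often in label-retaining cells, 9 without overlap, and the share detected per cell was 85.0% ± 9.3 against 61.8% ± 11.9, a ratio of 1.38. After thinning that ratio was 1.60 (70.8 against 44.2%). In the unpaired TMM fit their median log2 fold change was -1.52 over 45 genes, beside 1.14 over all genes. Of the 45 genes 0 had an unadjusted p under 0.05 by edgeR, and other scalings of this list were not compared. They took 8.62% ± 2.00 of counts in label-retaining and 10.2% ± 2.75 in the other cells. These shares overlapped, and label-retaining cells were higher in 2 of 4 repeats.

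Of 22 markers of neutrophils, monocytes, B cells, T and NK cells and megakaryocytes in the table, 11 were detected in at least 1 cell and 11 in none. Those detected in the most cells were Vwf (16 label-retaining, 8 non-label-retaining cells), Itga2b (11 and 2), both also expressed by stem cells, Cd79a (8 and 3) and Cd68 (7 and 0). Cd79a, of the B cell receptor, had an unadjusted level p of 0.0133 (log2 fold change 6.42 ± 2.59, edgeR adjusted p = 0.360). Elane, Mpo, Ltf, Csf1r, Adgre1, Ccr2, Ebf1, Cd4, Nkg7, Gp9 and Gp6 had no count in any cell, and in any repeat neutrophil markers took at most 0.00618%, monocyte markers 0.00479%, megakaryocyte markers 0.0465% and B cell markers 0.190% of counts. Of the 4 erythroid markers, an average of 55.1% was detected in a label-retaining cell, beside 55.8% in a non-label-retaining one. Of the 8 stem cell markers in the table, 36.6 and 19.5% were detected, a ratio of 1.88. The part of these markers in the differences above was not tested.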

How the data were processed

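The authors deposited 1 table of estimated counts per gene and cell for 65 single cells, made from reads on mm10 with DESeq named, per the submitters' processing notes. Aligner, counter and annotation: not given in the sources used here. Submitters call this table normalized; totals per cell differed so widely that the values were treated as not normalized, which stays an assumption. A median of 72.45% of values above 0 per cell (range 56.66 to 96.77%) were whole within 0.01. Gene identifiers were matched to symbols through RefSeq GRCm38.p6 (16216 of 18036; the 1820 others held 0.1304% of counts). Members and lists were chosen with earlier results of these data known.

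Level was tested by edgeR 4.0.16 (R 4.3.3; quasi-likelihood, TMM, robust, threshold 0.05) on rounded sums of the deposited counts per repeat and group, for genes detected in at least 10 cells whose per-cell means averaged at least 10 across the 8 sums. Detection (value of at least 1) was tested by an exact permutation of 4 against 4 repeat shares over genes in at least 10 cells, Benjamini-Hochberg adjusted. Thinning gave each cell's expected detection at 10000 counts for 61 cells. Shares of members and of counts per cell were described and not tested. The scripts were tested on simulated data. Whether repeats came from separate animals is not in the labels used here, beyond "biological repeats". Repeat numbers paired the samples: deviations of same-numbered sums from their group means correlated at 0.553, 0.29, 0.17 and 0.16. Alternatives were DESeq2 1.42.0, other scaling and filters, a repeat block, limma 3.58.1 on rescaled cells (pseudocount 1 CPM), a threshold of 10 counts or of any value, leaving out shallow cells, the deepest cell, each repeat and each sum. Values were given for the 16 members found in the most cells, and for members with an unadjusted p under 0.05 or without overlap.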

Additional observations from a re-analysis of the deposited data

Results flagged for a closer look

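Of 82 sets of 4 repeat values examined, 14 had 1 repeat far from the other 3, where the rule picks about 1 in 20 sets by chance if sets are independent. These sets share genes, repeats and single cells, so the number is no test. In non-label-retaining repeat 1, Eif1 took 2.153% of counts per cell (others 0.00239 to 0.239%), and Eif4ebp1 was detected in 50% of cells (others 0%). The CPM of that repeat also stood apart for Eif4ebp1 (75.2; others 0), Eif4a1 (292.1; others at most 9.61), Eif5a (317.0; at most 11.9), Eif4a3 (221.6; at most 5.30) and Eif2s1 (202.1; at most 3.97). In non-label-retaining repeat 3, Eif5b was detected in 66.7% of cells (others 25.0 to 30.0%), and the CPM of Eef1b2 (3443; others at most 304.9) and Eif4e2 (8535; at most 218.4) stood apart. In non-label-retaining repeat 2, Eef2 took 0.654% of counts (others 0.0966 to 0.123%). Among label-retaining repeats, Eif4a3 was detected in 0% of the cells of repeat 4 (others 77.8 to 88.9%), Eef2 reached 6389 CPM in repeat 3 (others 929.9 to 1682), and Eif1 reached 3059 CPM in repeat 2 (others 1218 to 1471).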

How the results depend on the processing

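No member was called for level under any of the alternatives run, the repeat block and DESeq2 included. DESeq2 gave no adjusted p for Eif4e2, Eef1aknmt, Eif3b, Eif2b2 and Eif4a3l1. The number of members with non-overlapping detection shares was 1, and 1 after thinning, at any value above 0 and without shallow cells. It was 5 at 10 counts (12.6% of all genes) and 1 to 5 when a repeat or a set of cells was left out (8.35 to 22.5% of all genes, which without replicate 2 stood beside 12.0% of members). Under the replicate block it is 1 by construction, since a gene without overlap is higher in every pair. The block changed no other call. The difference in the share of members per cell stayed between 13.88 and 22.56 points when a repeat or set was left out. That in the share of counts stayed between 0.0258 and 0.972 points when a whole repeat was left out, and single sets were not left out for it. Some signs turned. The log2 fold change of Eef2 was 0.19 with total counts, 0.77 with rescaled cells, and -1.60 to 0.61 when a repeat or sum was left out. That of Eif1 was 0.84 with the replicate block and 1.45 with rescaled cells. That of Eif5 was 1.28 with total counts, 0.14 with the block, 2.04 with rescaled cells, and -1.97 to 0.67 with a repeat or sum left out. The detection difference of Eef2 was -2.22 points without cells under 10000 counts, and that of Eif1 ran from -5.0 to 11.67 points with a repeat or set left out. The cause of these turns was not tested. With the block the signs of Eif4e2 (0.04) and Eef1b2 (1.72) also turned. At an unadjusted p under 0.05, members numbered 3 higher with the block (214 of 2767 genes higher), 5 higher with rescaled cells (292 genes), 2 higher and 1 lower with DESeq2 (204 and 138 genes), 1 lower with the stricter filter (42 higher and 89 lower of 1092 genes), and 4 higher and 1 lower without replicate 1 (319 and 57 genes). With 4 repeats and few cells, detection differences of single members are limited by the number of cells.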
